A study of Mus musculus with 5 samples.

Results

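H3K27me3 was mapped by ChIP-seq in wild-type (WT) dermal fibroblasts of late mouse embryos (E18.5 in the study's methods), and the regions that carried the mark in both WT libraries were taken as the baseline landscape of these cells. The cells were expanded in culture in AmnioMAX medium before fixation. The series held 5 samples, of which 2 were WT (replicates 7 and 9) and are described here. Of the others, 2 were Kdm6b-cKO libraries and 1 was an input, and none of these was used. In the study's mice Kdm6b, a demethylase that removes this mark, was deleted with a Cre driven by the Twist2 (Dermo1) locus, and WT cells were described elsewhere in the study as carrying floxed Kdm6b alleles without deletion. The labels state a sort for GFP, a marker of the deletion, for every sample, WT included, so whether the WT cells were sorted in the same way is not clear from the labels. The labels do not say whether the WT libraries came from separate embryos. Depth could not be read from the lists, which give peaks and not reads, and with 2 libraries of 1 group every value below is a description without a test.

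H3K27me3, trimethylation of lysine 27 on histone H3, is placed by Polycomb repressive complex 2 (PRC2) through its catalytic subunit Ezh2 or Ezh1, and is bound by the Cbx proteins of Polycomb repressive complex 1. The mark covers genes that are held silent, above all regulators of development, where it often starts at stretches rich in CpG dinucleotides and spreads over the locus. In a differentiated cell it lies on the regulators of other lineages, while genes that the cell itself uses are normally free of it. Dermal fibroblasts come from mesoderm and cranial neural crest, make the collagen matrix of the skin and include the precursors of the dermal papilla of the hair follicle and of dermal adipocytes.

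A promoter was taken as the transcription start site (TSS) ± 3 kb and called marked when peaks covered at least 500 bp of its 6000 bp in each library. On the 19 autosomes 3205 of 20807 protein-coding genes (15.4%) were marked in both libraries. Peaks reached over the full 6000 bp in both libraries at 680 promoters and over 3000 bp or more at 1752. In contrast, 16135 promoters had no covered base in either library. The minimum separated few genes. In the less covered library 75 promoters lay within 100 bp above it and 96 within 100 bp below it.

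Marker genes of fibroblasts and other cell types were read next. Cover of 0 bp in both libraries was the state of 16135 of all 20807 promoters, so it does not check the fibroblast label. All 11 fibroblast markers on the autosomes had 0 bp of peak within 3 kb of their TSS in both libraries. The wider list of 26 fibroblast genes, which holds Pdgfra and Pdgfrb, receptors for platelet-derived growth factors, and the collagen genes Col1a1 and Col1a2, was likewise at 0 bp for every member, and 22 of the 26 had no peak within 25 kb in either library. Markers of other cell types were marked in part. Of 8 keratinocyte markers 4 were marked (Krt1, Cdh1, Epcam and Grhl2) and of 5 skeletal muscle markers 3 (Myod1, Pax7 and Ckm). Of 6 endothelial markers 2 were marked (Kdr and Erg), of 6 immune markers 2 and of 5 adipocyte markers 2 (Pparg and Adipoq). Of 5 autosomal melanocyte and Schwann cell markers 1 was marked (Sox10). These small counts stand beside the 15.4% of all genes. The mark reports silencing and not expression, so a marker without it need not be expressed, and the share of other cell types in the cultures was not tested.

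The sequences of 4 promoters show 2 pairs of relatives, in each of which 1 gene was marked and the other was free. En2 and En1 are homeobox genes of the engrailed pair, and Tbx20 and Tbx15 are T-box genes. The 200 bp before each TSS are printed 5′ to 3′ from GRCm38.p6, the assembly behind mm10, with CpG dinucleotides in capitals. En2 lies on the plus strand (chr5:28165494-28165693), En1 on the plus strand (chr1:120602218-120602417), Tbx20 on the minus strand (chr9:24774304-24774503) and Tbx15 on the plus strand (chr3:99240181-99240380). These stretches lie upstream of annotated exons.
En2: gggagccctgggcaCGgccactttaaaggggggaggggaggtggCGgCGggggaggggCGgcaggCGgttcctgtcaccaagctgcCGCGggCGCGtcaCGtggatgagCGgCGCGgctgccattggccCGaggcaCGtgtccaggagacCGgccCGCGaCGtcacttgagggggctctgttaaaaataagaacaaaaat
En1: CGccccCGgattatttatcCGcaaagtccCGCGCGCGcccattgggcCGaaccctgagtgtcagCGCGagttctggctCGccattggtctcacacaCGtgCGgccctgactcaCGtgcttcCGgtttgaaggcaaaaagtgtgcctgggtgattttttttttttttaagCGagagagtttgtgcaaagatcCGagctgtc
Tbx20: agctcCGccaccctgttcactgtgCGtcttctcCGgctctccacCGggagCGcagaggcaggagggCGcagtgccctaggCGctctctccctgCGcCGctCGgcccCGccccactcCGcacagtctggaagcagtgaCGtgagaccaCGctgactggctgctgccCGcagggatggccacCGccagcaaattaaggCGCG
Tbx15: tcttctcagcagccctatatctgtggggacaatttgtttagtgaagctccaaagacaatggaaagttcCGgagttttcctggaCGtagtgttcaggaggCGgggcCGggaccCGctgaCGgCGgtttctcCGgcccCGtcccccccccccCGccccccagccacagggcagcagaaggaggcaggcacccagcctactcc
En2 was covered over 100% of its promoter in both libraries and its stretch holds 19 CpG. En1, which is expressed in a lineage that forms dorsal dermis, was covered over 0% in both and holds 17, a number above that of 78.6% of all promoters. Tbx20, a heart regulator, was covered over 100% in both with 18 CpG, and Tbx15, a regulator of skin and skeletal mesenchyme, over 0% in both with 10. In the wider window of TSS ± 500 bp the free genes held fewer CpG, with 11.3 CpG per 100 bp for En2 and 4.9 for En1, and 5.8 for Tbx20 and 2.6 for Tbx15.

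Replicate 7 held 25671 autosomal peaks that covered 81.8 Mb and replicate 9 held 19210 that covered 55.3 Mb, a ratio of 1.48. Bases covered in both came to 48.5 Mb, 1.97% of the autosomes. This was 87.8% of the length of replicate 9, 59.3% of that of replicate 7 and 54.8% of the length covered in either. Most of the length of replicate 9 thus lay within peaks of replicate 7.

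Agreement rose with peak length. Of the peaks of replicate 7 of up to 1 kb, 17.2% touched a peak of replicate 9, whereas all 1177 peaks of 10 to 20 kb and all 486 longer ones did. For replicate 9 the share that touched a peak of the other list was 61.4% for the shortest class and 100% for both classes over 10 kb. The −log10 q that the peak caller gave moved with it. When the peaks of replicate 7 were divided into 10 equal classes by −log10 q, 12.8% of the lowest class and 96.8% of the highest touched a peak of replicate 9. Peaks of replicate 7 without a partner had a median length of 762 bp and a median fold enrichment over local background of 2.83, against 3349 bp and 3.09 for those with one.

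**Figure D1:**
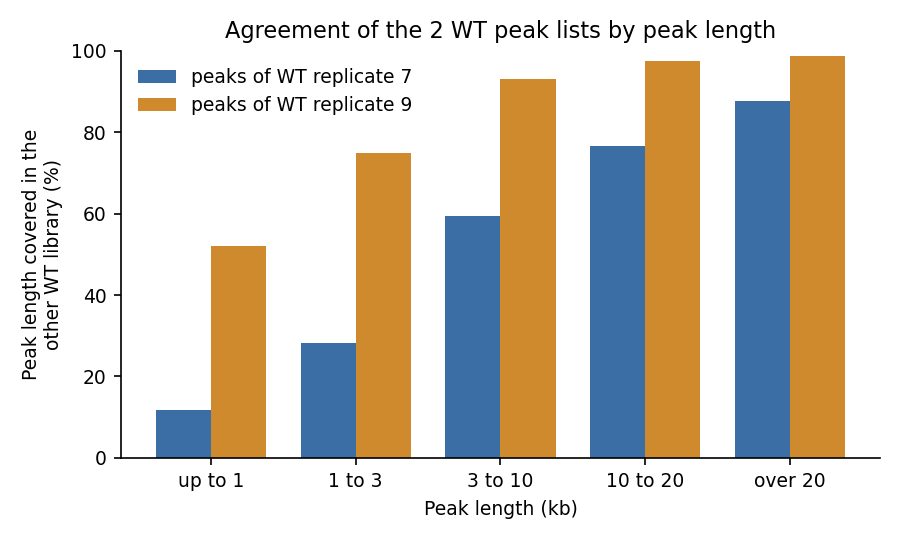
Share of the length of autosomal H3K27me3 peaks that was also covered in the other WT library (y axis, percent), by peak length (x axis, kb), for peaks of replicate 7 and of replicate 9. The share climbs from 11.8% for the shortest peaks of replicate 7 to 87.7% for those over 20 kb, and from 52.0% to 98.7% for replicate 9.

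Peaks that matched 1 to 1 had edges that lay 540 bp apart in the median over 9077 pairs, with an upper quartile of 1049 bp. Replicate 7 had the longer peak in 75.2% of these pairs. Longer peaks of replicate 7 were often broken up in replicate 9. Of its 1663 peaks over 10 kb, 61.9% held 2 or more peaks of replicate 9, whereas 11.1% of the 1007 peaks over 10 kb of replicate 9 held 2 or more of replicate 7.

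At promoters the lists were compared by gene. Replicate 7 marked 4047 promoters and replicate 9 marked 3356, with 842 marked in replicate 7 only and 151 in replicate 9 only. Of the promoters marked in replicate 9, 95.5% were also marked in replicate 7, and 79.2% in the opposite direction. Spearman's rho of the covered length was 0.875 over the 4198 promoters marked in either library, as a description across genes that share libraries. Promoters marked in replicate 7 only were covered over 19.0% in the median, those marked in both over 74.9% in replicate 7 and 58.1% in replicate 9.

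The libraries differed widely at single genes. Cd4, a coreceptor of T cells, was covered over 100% in replicate 7 and 7.2% in replicate 9. Ghrhr, the receptor for growth hormone-releasing hormone, was covered over 76.4% and 0%. In the other direction Hoxa3 was covered over 50.6% in replicate 7 and 100% in replicate 9 at its outermost start, but over 57.5% and 67.7% at another of its annotated starts. A difference of 3 kb or more was found at 115 promoters with the larger value in replicate 7 and at 1 with the larger value in replicate 9.

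The strongest peaks by −log10 q were not the most enriched. In replicate 7 a peak of 450 bp at chr2:98666739-98667188 led, with a −log10 q of 260.1 and a fold enrichment of 1.19. In replicate 9 a peak of 545 bp at the same place, chr2:98666672-98667216, led with 1409 and a fold enrichment of 1.502. Whether the sequence at this place occurs in many copies was not tested. The median fold over all autosomal peaks was 2.94 in replicate 7 and 3.07 in replicate 9. Peaks at both ends of this scale were kept, and lengths and counts below do not use −log10 q.

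Around the marked promoters, which were chosen for cover within 3 kb of the TSS, the share of bases covered in both libraries was averaged over the 3205 genes. It was 58.2% in the 1 kb before the TSS and 62.3% in the 1 kb after it. The share was 25.1% at 6.5 kb upstream, 16.1% at 12.5 kb and 10.4% at 24.5 kb. Downstream it was 52.8% at 2.5 kb, 28.3% at 5.5 kb and 10.1% at 23.5 kb. Promoters made up 21.8% of the shared length and 4.65% of the autosomes, and 48.4% of the shared length lay outside protein-coding genes and their promoters.

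Marked genes often had marked neighbours. The next gene along the chromosome was marked for 31.6% of marked genes and for 12.5% of unmarked ones. There were 204 runs of 3 or more marked genes, which held 762 genes. The longest run held 15 genes from Skap2 through the Hoxa cluster to Evx1 on chromosome 6. Others were 10 genes on chromosome 17 from Prss34, a mast cell protease, to Sox8, 9 genes on chromosome 11 from Ttll6 through Hoxb3, and 8 genes on chromosome 9 from Cd3g, Cd3d and Cd3e, subunits of the T cell receptor complex, to Scn4b. Windows of close neighbours overlap, which adds to these counts. Chromosome 11 had the largest share of its length covered in both libraries (3.42%) and chromosome 16 the smallest (0.774%).

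Among 71 families defined by gene symbol, 7 were marked in every member, namely the 9 Pax genes, 10 Lhx and Lmx genes, 14 Nkx genes, 6 Dlx genes, 5 Gata genes, 4 Zic genes and 9 Msx, Alx and Pitx genes. In 44 of the 71 the marked share lay above the 15.4% of all genes. The cover in these families was also wide. The median length covered within 25 kb of the TSS was 37.4 kb in replicate 7 and 36.7 kb in replicate 9 for Pax, and 46.04 kb and 42.03 kb for Zic, against 12.03 kb and 8.54 kb over all marked genes.

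In other families a few members were free. Of the 15 T-box genes 12 were marked, and Tbx15, Tbx18 and Tbx6 were not. Tbx18, a gene of the dermal papilla, had 3.55% of its promoter covered in replicate 7 and 0% in replicate 9. Of 4 Ebf genes Ebf1, which acts in adipocyte precursors, was unmarked, with 0% in both libraries. Among 18 Sox genes the unmarked ones were Sox4, Sox9, Sox11, Sox12, Sox15 and Sox30. In the Hand and Twist group of 10 bHLH genes Twist1 and Twist2, regulators of mesenchyme, Scx, a tendon regulator, and Tcf23 were not marked, and the other 6 were. The Forkhead family had 26 of 41 marked. The unmarked ones included Foxo1, Foxo3, Foxp1, Foxk1 and Foxk2, genes used in many tissues, but also Foxi1, Foxn1, Foxr1 and Foxs1, so they were not only genes of that kind.

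Families of receptors, channels and transporters were marked in part, at shares above the 15.4% of all genes. They were defined by gene symbol and were not limited to genes of neurons. Of 16 GABA receptor genes 8 were marked, of 16 nicotinic receptor genes 7, of 14 sodium channel genes 6 and of 17 Slc6a transporter genes 7. Of 27 glutamate receptor genes 21 were marked, of 92 potassium channel genes 63, of 32 receptors for serotonin, dopamine, adrenaline and acetylcholine of the muscarinic type 20, and of 25 calcium channel genes 13. In 6 small families no gene was marked, against the 15.4% of all genes. None of 5 lysyl oxidase genes, which cross-link collagen, none of 10 small leucine-rich proteoglycan genes, among them Dcn and Lum, and none of 8 Smad genes, 4 Tead genes, 14 Jun, Fos and Atf genes or 6 C/EBP genes was marked in both libraries. Of 42 collagen genes 12 were marked, among them Col2a1, Col9a2, Col11a1 and Col11a2, collagens of cartilage, but also Col14a1 and Col15a1. Col9a1, Col9a3 and Col10a1, further collagens of cartilage, were not marked. Other matrix families were marked in part, with 6 of 19 Adamts proteases and 5 of 22 matrix metalloproteinases. Among zinc finger genes named Zfp 26 of 385 were marked, and among Klf genes 2 of 16. In large families that are used in few cells, 19 of 1126 olfactory receptor genes, 1 of 327 vomeronasal receptor genes (Vmn1r1) and 1 of 60 serpin genes were marked. Counts in families of near-identical copies are uncertain, since reads from copies can be placed wrongly or dropped.

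The Hox clusters, which set position along the body and limb axes, were marked unevenly. Of 39 Hox genes 32 were marked. All 12 genes numbered 10 to 13 were marked and 11 of them were covered over 100% in both libraries, the exception being Hoxc10 at 58.1% in replicate 7 and 100% in replicate 9. Of the 15 genes numbered 5 to 9, 12 were marked and none was covered in full in both. Among the 12 genes numbered 1 to 4, 8 were marked and 1, Hoxb1, was covered in full.

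The 7 free Hox genes all had 0% in both libraries and lay in 3 clusters. Hoxb2 was free between Hoxb3, at 79.8% in replicate 7 and 44.9% in replicate 9, and Hoxb1, at 100% in both. In the Hoxc cluster Hoxc8, Hoxc6 and Hoxc4 were free, and the length covered within 25 kb fell from Hoxc9, with 19.98 kb and 25.8 kb in replicates 7 and 9, to Hoxc8, with 6.23 kb and 11.7 kb, Hoxc6, with 1.78 kb and 4.01 kb, and Hoxc4, with 0 kb in both. In the Hoxd cluster Hoxd8, Hoxd4 and Hoxd3 were free between Hoxd9, covered over 100% and 54.0%, and Hoxd1, covered over 100% and 77.2%. Annotated starts limit this account. The outermost start of Hoxc5 lies 647 bp from that of Hoxc10, and peaks covered 12.5% of the Hoxc5 gene in replicate 7 and 19.66% in replicate 9, while Hoxd3 and Hoxd4 share their outermost start within 2 bp.

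**Figure D2:**
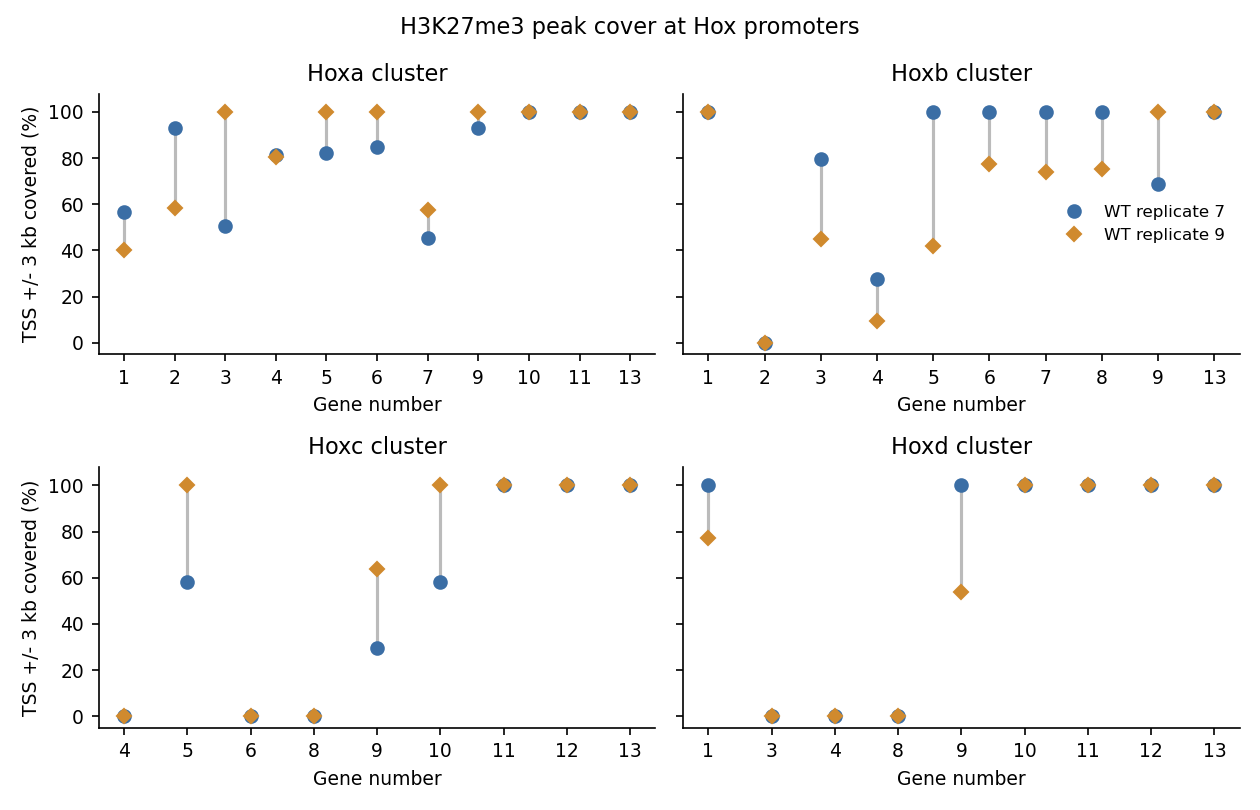
Share of the TSS ± 3 kb covered by H3K27me3 peaks (y axis, percent) for each Hox gene, ordered by gene number within its cluster (x axis), with circles for WT replicate 7, diamonds for WT replicate 9 and a grey line between the values of a gene. Genes numbered 10 to 13 sit at 100% in both libraries with the exception of Hoxc10 in replicate 7, and the 7 genes at 0% lie in the Hoxb, Hoxc and Hoxd clusters.

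Over the whole clusters, peaks covered 80.8% of Hoxa in replicate 7 and 82.7% in replicate 9, 72.2% and 58.5% of Hoxb, 43.5% and 48.5% of Hoxc, and 42.5% and 35.4% of Hoxd. Hoxa and Hoxc were the clusters in which replicate 9 had the larger value, although its peaks covered less of the genome. In the Hoxa cluster all 11 genes were marked, including Hoxa5 at 82.2% in replicate 7 and 100% in replicate 9. Reads in bulk cells cannot tell a gene marked in all cells from a gene marked in some of them, or on 1 of its alleles.

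Of 64 neuronal transcription factors 60 (93.8%) were marked and 50 were covered in full in both libraries, beside the 15.4% of all genes. Among these, Pax2, Tlx1, Neurod2, Neurog1 and Lhx2 had the longest cover within 25 kb of the TSS in the less covered library. Their cover ran well past the promoter, with the whole 25 kb on either side of the Pax2 TSS covered in replicate 7 and 48.7 kb of it in replicate 9, and 48.8 kb and 47.8 kb around Neurod2, a factor of cortical neurons. The 4 that were not marked in both were Neurod4, En1 and Emx2, at 0% in both, and Neurod6, at 36.4% in replicate 7 and 0% in replicate 9. Emx1, the relative of Emx2, was at 100% in both. Terminal neuronal genes, which act in transmission and structure and not in transcription, were marked in 16 of 25 cases (64.0%). Slc32a1, the vesicular transporter for GABA, and Nefh, a neurofilament subunit, were at 100% in both, whereas Tubb3, Map2, Elavl4 and Gad1 were at 0% in both.

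**Figure D3:**
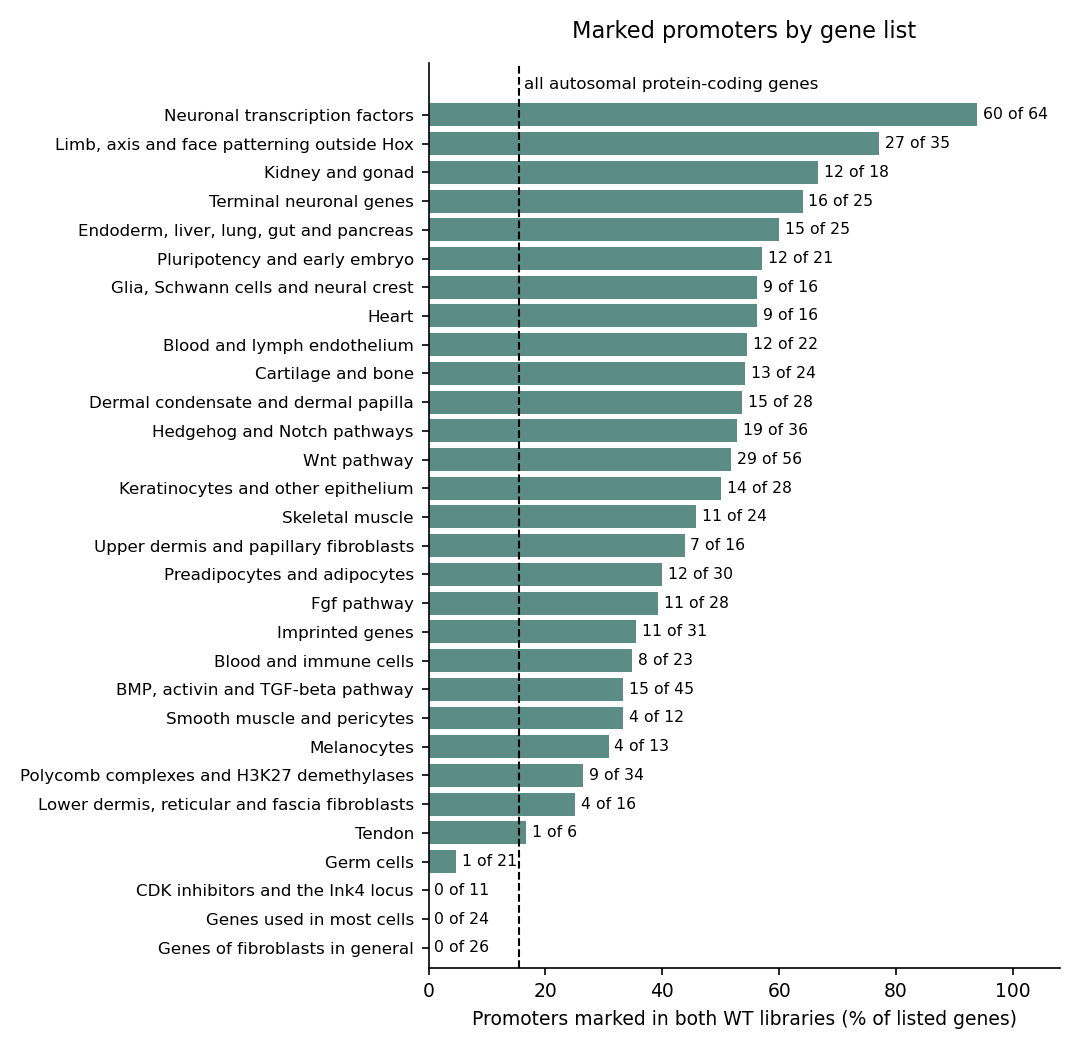
Share of the genes of each list whose promoter was marked in both WT libraries (x axis, percent), with the number marked and the number on the autosomes beside each bar. The dashed line is the share over all autosomal protein-coding genes, 15.4%, and 26 of the 30 lists lie above it.

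Transcription factors and other genes were also counted apart in 13 pooled lists, without the lists of neurons and of dermal fibroblasts and papilla. The pool included the adipocyte list. Some of its factors, among them Pax2, Pax8, Lhx1, Lhx9, Isl1 and Emx2, were also in the list of neuronal factors, so these counts are not separate from that one. Of 99 transcription factors 70 (70.7%) were marked and 46 were covered in full. Of 148 other genes 46 (31.1%) were marked and 10 covered in full, beside the 15.4% of all genes that were marked. The division was made by hand from known function with these values already known. In the endothelial list 8 of 8 factors and 4 of 14 other genes were marked. In the endoderm list it was 14 of 15 factors and 1 of 10 others, and in the heart list 8 of 9 and 1 of 7. The shares of other genes in these lists, 10.0% and 14.3%, lay below the 15.4% of all genes.

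In the endothelial list Tal1, Prox1, Sox17 and Etv2, which specify blood and lymph vessels, and Flt4, a receptor for vascular growth factors, were at 100% in both libraries. Pecam1, Cdh5, Tek and Tie1, surface genes of mature endothelium, were at 0% in both. In the endoderm list Foxa1, Nkx2-3, Foxa2, Cdx2 and Nkx2-1, regulators of liver, spleen, gut and lung, were at 100% in both. Alb, Afp, Ins1 and the regulator Hnf4a were at 0% in both. The 2 genes marked in replicate 7 only were Ttr, at 51.4% and 0%, and Sftpc, at 29.0% and 0%.

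Heart regulators were marked with wide cover. Nkx2-5 was at 100% in both libraries with 43.5 kb in replicate 7 and 41.5 kb in replicate 9 within 25 kb of its TSS, and Hand2 at 100% with 44.1 kb and 40.05 kb. Genes of the contractile machinery such as Myl7, Tnnt2 and Tnni3 were at 0% in both, as were Nppa and the factor Mef2c. Myh6, a myosin of heart muscle, was at 69.9% in replicate 7 and 0% in replicate 9.

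The regulators of skeletal muscle were marked in part. Pax3 and Pax7, which mark muscle precursors, were at 100% in both libraries with every base within 25 kb of their TSS covered, and Lbx1 was at 100% as well. Myod1, the factor that commits cells to muscle, was at 85.7% in replicate 7 and 84.2% in replicate 9. Myf5, Myf6 and Myog, the other factors of the Myod1 group, were at 0% in both. Of the muscle list 11 of 24 genes were marked, beside the 15.4% of all genes.

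The cartilage and bone list had 13 of 24 marked, beside the 15.4% of all genes. Col2a1 and Acan, the main collagen and proteoglycan of cartilage, and Comp were at 100% in both libraries. Barx1 and Nkx3-2, regulators of skeletal mesenchyme, and Ihh, a hedgehog ligand of growth plates, were also at 100%. Sox9, Runx2 and Sp7, the central regulators of cartilage and bone, were at 0% in both. The tendon list had 1 of 6 marked, Mkx, at 99.6% in replicate 7 and 99.9% in replicate 9. Thbs4 was at 52.9% and 4.82%.

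Among genes of the epidermis 14 of 28 were marked, beside the 15.4% of all genes. Tfap2a, Grhl3, Tfap2c, Esrp1 and Grhl2, regulators of transcription and splicing in epithelia, were at 100% in both libraries, and Cdh1, the adhesion protein of epithelia, was at 100% in both. Krt5 and Krt14, keratins of the basal layer, Krt10 and Krt17 were at 0% in both, and so was Trp63, the regulator of basal keratinocytes. Krt8 and Krt18, keratins of simple epithelia, were at 62.5% in replicate 7 with 45.3% in replicate 9, and at 22.6% with 19.5%. In the melanocyte list the regulators Pax3, Foxd3 and Sox10 were at 100% in both and Kit at 80.1% and 78.2%. Mitf, Tyr, Tyrp1 and Dct, which make or control pigment, were at 0% in both. Dct is shown as an example of a free promoter with few CpG, on the minus strand at chr14:118052245-118052444 of GRCm38.p6, with 5 CpG in 200 bp before its TSS.
Dct: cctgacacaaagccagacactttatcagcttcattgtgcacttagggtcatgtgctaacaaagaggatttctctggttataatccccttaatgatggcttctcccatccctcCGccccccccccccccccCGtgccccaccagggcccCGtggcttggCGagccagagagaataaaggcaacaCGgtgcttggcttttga

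Of the immune list 8 of 23 genes were marked, beside the 15.4% of all genes. Pax5 and Gata3, regulators of B and T cells, were at 100% in both libraries and Ikzf1 at 99.1% in replicate 7 and 100% in replicate 9. Ptprc, the pan-leukocyte antigen CD45, Cd8a, Cd79a and Spi1, the regulator of myeloid cells, were at 0% in both. For kidney and gonad 12 of 18 were marked, with Pax2, Sall1, Six2 and Wt1 at 100% in both. Genes of pluripotency and the early embryo had 12 of 21 marked. Sox2 was at 100% in both with 41.3 kb and 38.7 kb covered within 25 kb, and T, Gsc and Nodal were at 100%. Nanog was at 40.7% and 32.4%, and Pou5f1 at 16.2% in replicate 7 and 0% in replicate 9. In the germ cell list 1 of 21 was marked, beside the 15.4% of all genes, Figla at 30.9% and 17.1%. Dazl, Ddx4, Sycp1 and Sycp2 were at 0% in both, and Dmc1 was at 20.2% and 7.0%.

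Within the dermis itself the lists divided, and their counts stand beside the 15.4% of all genes. In the list of the dermal condensate and papilla, the signalling centre of the hair follicle, 15 of 28 were marked. Bmp4, Sox2, Foxd1, Eya2 and Bmp7 were at 100% in both libraries, with 45.5 kb in replicate 7 and 40.2 kb in replicate 9 covered around Bmp4. Fgf7, Fgf10, Wnt5a and Nog, a BMP antagonist, were at 0% in both. In the list of upper dermis and papillary fibroblasts 7 of 16 were marked. Lef1, the nuclear effector of Wnt signalling, was at 71.8% and 53.6%, Efhd1 at 100% in both, Rspo1 at 97.7% and 64.8% and Axin2, a Wnt target, at 26.9% and 14.4%. Crabp1, Cav1, Apcdd1 and Trps1 were at 0% in both. In the list of the lower dermis and fascia 4 of 16 were marked, Tnxb at 54.0% and 55.6%, Fndc1 at 50.1% and 53.9%, Dlk1 at 47.8% and 47.4% and Igfbp5 at 37.7% and 18.5%. Thbs1, Ptn, Mfap5 and Ly6a were at 0% in both.

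Adipocyte genes were marked in 12 of 30 cases, beside the 15.4% of all genes. Ebf2 and Prdm16, regulators of brown and beige fat, and Cidea were at 100% in both libraries, and Lep, which encodes leptin, was at 96.9% in replicate 7 and 71.9% in replicate 9. Pparg, the main regulator of adipogenesis, was at 18.2% and 20.97%, and Adipoq was at 18.0% and 8.38%. Cebpa, which acts with Pparg, was at 22.0% in replicate 7 and 5.32% in replicate 9 and so was marked in replicate 7 only. Cebpb, Cebpd, Fabp4 and Plin1 were at 0% in both. The calls of Pparg and Adipoq rest on short stretches of peak, 1093 bp in replicate 7 and 1258 bp in replicate 9 for Pparg, and 1082 bp and 503 bp for Adipoq.

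Among the 30 genes the study names 14 were marked, beside the 15.4% of all genes. That list was chosen by the authors with data of these mice. Besides genes given above, Prom1 was at 93.0% in replicate 7 and 80.4% in replicate 9, Nkd1 at 61.6% and 56.7% and Alpl at 100% and 49.6%. Runx3, Cd36, Tcf4 and Tcf7l2 were at 0% in both. The study writes Tcf4 and Tcf7l2 together for a binding motif, so its Tcf4 may not stand for a separate gene. Kdm6b and Ezh2, the demethylase and the methyltransferase of the mark, were at 0% in both.

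Limb, axis and face regulators outside the Hox clusters were marked in 27 of 35 cases (77.1%), beside the 15.4% of all genes. Zic2, Pitx1, Hand2, Tbx4 and Zic1 were at 100% in both libraries. Pitx1 and Tbx4 set hindlimb identity, and around Pitx1 45.9 kb was covered in replicate 7 and 45.3 kb in replicate 9. Tbx15, Meis1, Meis2, Shox2, En1 and Irx5 were at 0% in both, and Foxp1 was not marked. Meis1 and Meis2 are partners of Hox proteins.

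Genes of signalling pathways were marked in part, and the counts stand beside the 15.4% of all genes. Of 19 Wnt ligand genes 13 were marked, with Wnt7a, Wnt8b, Wnt3 and Wnt9b at 100% in both libraries. Wnt2, Wnt5a, Wnt8a and Wnt9a were at 0% in both. Of 10 Frizzled receptor genes 1 was marked, Fzd10, at 100% in replicate 7 and 89.3% in replicate 9, and the coreceptor genes Lrp5 and Lrp6 and Ctnnb1, which encodes beta-catenin, were at 0%. Sfrp2, a Wnt antagonist of dermal fibroblasts, was at 21.8% in replicate 7 and 0% in replicate 9.

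The BMP and TGF-beta list had 15 of 45 marked, beside the 15.4% of all genes. Of 20 BMP and GDF ligand genes 11 were marked, with Bmp4, Gdf7, Bmp7 and Bmp2 at 100% in both. Tgfb1, Tgfb2 and Tgfb3, their receptor genes Tgfbr1 and Tgfbr2, and the BMP receptor genes Bmpr1a and Bmpr2 were at 0% in both. Bmpr1b, a further BMP receptor gene, was marked, at 30.97% in replicate 7 and 27.4% in replicate 9. In the Fgf list 11 of 28 were marked. Fgf3, Fgf8 and Fgf5 were at 100% in both, whereas Fgf2, Fgf7 and Fgf10 were at 0%. Of the 4 receptor genes in the list 2 were marked, Fgfr3 at 100% in replicate 7 and 70.5% in replicate 9 and Fgfr4 at 55.7% and 32.9%, and Fgfr1 and Fgfr2 were at 0% in both. In the Hedgehog and Notch list 19 of 36 were marked. Ihh, Dll1, Shh and Dll4, all ligands, and Ptch1, the hedgehog receptor, were at 100% in both. Gli1, a target and effector of the pathway, was at 25.03% in replicate 7 and 23.3% in replicate 9, while Gli2 and Gli3 were at 0%. Of the 4 Notch receptor genes 2 were marked, Notch3 at 36.0% and 32.6% and Notch4 at 22.7% and 15.4%, and Notch1 and Notch2 were at 0% in both.

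Polycomb genes were marked in 9 of 34 cases (26.5%), beside the 15.4% of all genes, in most cases over a part of the promoter. Epop, a cofactor of PRC2, was at 88.3% in replicate 7 and 88.6% in replicate 9. Cbx8, a reader of the mark, was at 45.0% and 43.8% with 27.22 kb and 26.98 kb covered within 25 kb. Its relative Cbx7, at 8.68% and 18.9%, was marked too. With a minimum of 3000 bp 1 of the 34 was left. Ezh1, Ezh2, Eed and Suz12, the core of PRC2, were at 0% in both. The list of cell cycle inhibitors had 0 of 11 marked in both. Cdkn2a, a locus known to be silenced by Polycomb in dividing cells, was at 6.32% and 8.35% of its promoter, yet 21.3 kb in replicate 7 and 21.5 kb in replicate 9 within 25 kb of its TSS was covered. Cdkn1c was at 16.3% and 4.03%. The housekeeping list had 0 of 24 marked, with 22 at 0 bp in both. Larger families of genes used in most cells did hold marked members, at shares below the 15.4% of all genes. Marked were 5 of 75 ribosomal protein genes, 6 of 78 mitochondrial ribosomal protein genes, 3 of 49 proteasome genes and 3 of 44 complex I genes.

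Imprinted genes, of which 1 parental allele is silent, were marked in 11 of 31 cases, beside the 15.4% of all genes. Zdbf2, Dio3, Ascl2 and Kcnq1 were at 100% in both libraries, Grb10 at 79.6% in replicate 7 and 100% in replicate 9, and Igf2 at 53.2% and 58.9%. Igf2r, Peg3, Peg10 and Mest were at 0% in both. The lists do not separate alleles.

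Stretches covered in both libraries without a gap numbered 16357, with a median of 1321 bp. Those over 10 kb numbered 933 and held 35.3% of the shared length, and the 259 over 20 kb held 16.5%. Of the genes, 246 had their TSS inside a stretch over 20 kb.

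The longest stretch, 87.05 kb at chr8:123537864-123624914 within the body of Gm20388, was mostly multi-copy. Of its 31-base words 97.6% occurred more than once in the autosomes and the X chromosome, and 79.6% of its bases were masked as repeats. The same holds in part for 2 stretches of the major histocompatibility complex on chromosome 17, 65.6 kb over H2-Q6, H2-Q7 and H2-Q10 with 73.8% multi-copy words, and 58.9 kb over Gm7030 and Gm8909 with 42.3%. Placement of reads in such sequence is uncertain. For the other 17 of the 20 longest stretches the share ran from 1.61% to 13.4%.

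Many of these 17 held genes of transcription factors. The second longest stretch, 84.9 kb at chr7:79524907-79609812, covered most of Rhcg, an ammonium transporter gene, without its TSS, which lay 7.85 kb away in a separate stretch of mark, with 91.5% of the Rhcg promoter covered in replicate 7 and 91.4% in replicate 9. Hoxb13 lay in 79.3 kb (chr11:96146120-96225450), Pax3 in 71.5 kb (chr1:78157488-78228943) and Hoxc13, Hoxc12 and Hoxc11 in 68.9 kb (chr15:102896351-102965196). A stretch of 70.6 kb on chromosome 19 held no TSS and lay 50.5 kb from that of Pax2, and the next, of 62.0 kb, held Pax2 itself. Cdk5r2, Fev, a regulator of serotonin neurons, and Cryba2 shared 66.6 kb on chromosome 1, which in replicate 7 was part of a single peak of 133.4 kb. Further down came Dmbx1 with 57.9 kb, Evx2 with Hoxd13 to Hoxd10 with 55.6 kb, Zic5 and Zic2 with 54.1 kb, Nkx2-5 with 54.0 kb, Tlx1 with 53.9 kb, Wnt3a with 53.7 kb and Pax7 with 52.5 kb.

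**Figure D4:**
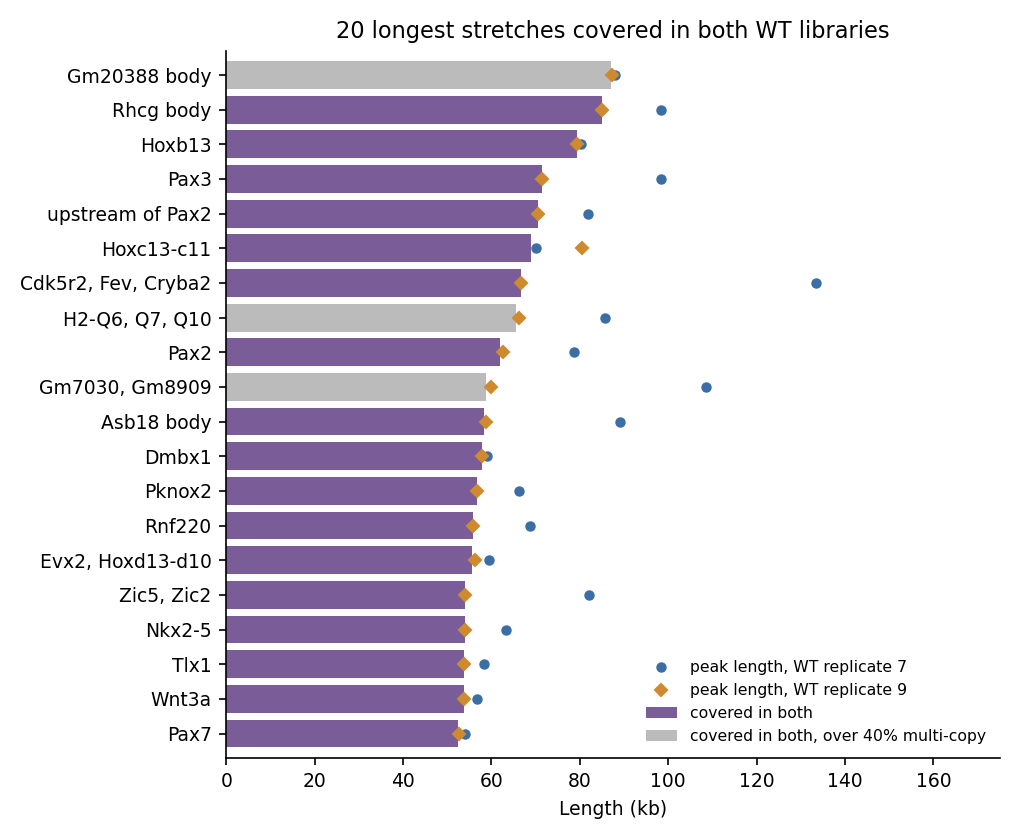
Length in kb (x axis) of the 20 longest stretches covered in both WT libraries (bars), named by the genes whose TSS or body they hold, with the length of the peak that contains each in replicate 7 (circles) and replicate 9 (diamonds). Grey bars are stretches in which over 40% of 31-base words occur more than once, and the bar of Cdk5r2, Fev and Cryba2 lies within a peak of 133.4 kb in replicate 7 and 66.6 kb in replicate 9.

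CpG content was read around every TSS. The median was 5.0 CpG per 100 bp in the TSS ± 500 bp for marked promoters and 4.0 for promoters with 0 bp in both libraries. In 10 equal classes of promoters by CpG content the marked share was 3.27% in class 1, with the fewest CpG, 22.1% in class 6 and 16.4% in class 10, with the most. The share covered in full was 0.288% in class 1 and 5.86% in class 10. When promoters with a CpG observed-to-expected ratio of at least 0.6 and at least 50% GC were called CpG-rich, 1587 of 9513 CpG-rich (16.7%) and 1618 of 11294 CpG-poor promoters (14.3%) were marked. Within the CpG-rich class marked promoters had 7.4 and promoters at 0 bp 7.3 CpG per 100 bp in the median. Of the promoters covered in full 65.4% were CpG-rich.

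**Figure D5:**
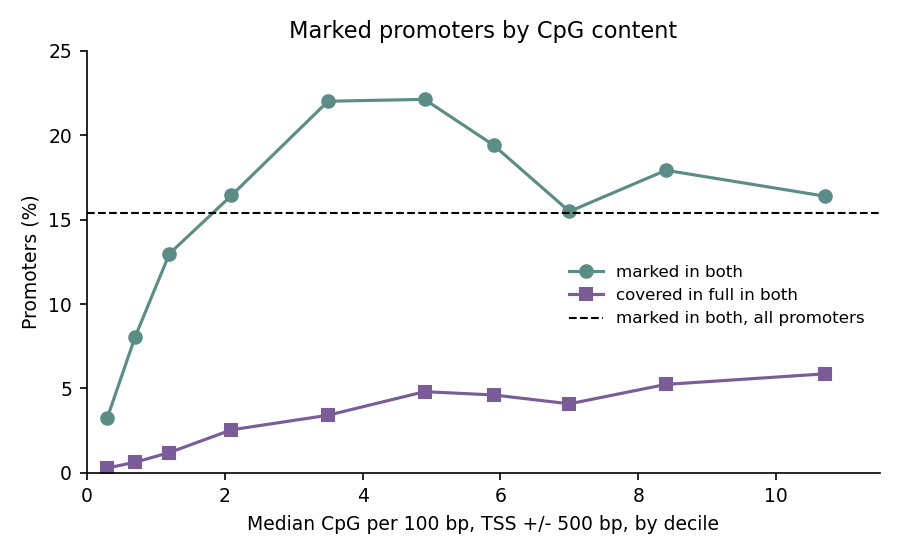
Share of promoters (y axis, percent) marked in both WT libraries (circles) and covered in full in both (squares) in 10 equal classes of promoters by CpG content, plotted at the median CpG per 100 bp of the TSS ± 500 bp of each class (x axis), with a dashed line at the marked share of all promoters, 15.4%. The marked share peaks in the middle of the range, at 22.1%, and the share covered in full is highest at the right end, at 5.86%.

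CpG class moved with the division between regulators and other lineage genes. In the 13 pooled lists 43 of 54 CpG-rich factors (79.6%) and 13 of 18 other CpG-rich genes (72.2%) were marked, against 27 of 45 CpG-poor factors (60%) and 33 of 130 other CpG-poor genes (25.4%). The 11 CpG-rich factors that were not marked were Cebpa, Cebpb, Cebpd, Sox9, Scx, Klf5, Mitf, Snai1, Snai2, Osr2 and Emx2. The fibroblast list held 4 CpG-rich and 22 CpG-poor promoters. Its median was 2.6 CpG per 100 bp, against 5.65 in the list of neuronal factors. Some other lists had medians as low, at 2.5 for skeletal muscle, 2.4 for heart, 2.4 for lower dermis, 2.1 for melanocytes and 1.8 for immune cells. Of their CpG-poor promoters 6 of 19, 5 of 12, 3 of 15, 1 of 9 and 7 of 22 were marked, against 0 of 22 in the fibroblast list. The part of CpG content in the 0 of 26 was not tested. Prrx1, a regulator of mesenchyme from the fibroblast list, is an example of a free promoter with few CpG. It has 3 CpG in the 200 bp before its TSS on the minus strand at chr1:163313711-163313910 of GRCm38.p6 and 0% covered in both libraries.
Prrx1: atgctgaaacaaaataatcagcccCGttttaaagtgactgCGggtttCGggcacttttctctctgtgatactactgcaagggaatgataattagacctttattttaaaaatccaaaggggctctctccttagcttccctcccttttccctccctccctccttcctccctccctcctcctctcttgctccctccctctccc

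Of 919 autosomal microRNA hairpins 31 (3.37%) lay wholly within peaks of both libraries, beside 1.97% of autosomal bases. The 31 count some loci more than once, since hairpins on the opposite strand overlap Mir9-1, Mir9-2 and Mir203. All 3 loci of miR-9, a microRNA of the nervous system, were among the 31. Mir9-1 lay in a stretch of 43.4 kb, Mir9-2 in 35.5 kb and Mir9-3 in 29.6 kb. The Mir9-3 hairpin lies 19.6 kb from the start of the 84.9 kb stretch over Rhcg. Mir137 of neurons, in 7.25 kb, Mir196a-1 and Mir196b of the Hox clusters, in 3.77 kb and 52.1 kb, Mir183 and Mir96 of sensory cells, in 19.6 kb, Mir203 of the epidermis, in 7.26 kb, and Mir375 of endocrine cells, in 66.6 kb, were covered too. The mature sequences, from RefSeq for GRCm38.p6, are shown for those of known function in other tissues, with the seed, bases 2 to 8, in capitals.
miR-9-5p: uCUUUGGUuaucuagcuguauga
miR-137-3p: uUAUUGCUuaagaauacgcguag
miR-196a-5p: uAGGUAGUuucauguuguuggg
miR-196b-5p: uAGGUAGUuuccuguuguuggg
miR-183-5p: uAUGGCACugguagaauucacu
miR-96-5p: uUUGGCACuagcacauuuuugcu
miR-203-3p: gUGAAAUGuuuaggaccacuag
miR-196a-5p and miR-196b-5p share the seed AGGUAGU, and their genes lie in the Hoxb and Hoxa clusters. The seeds of miR-183-5p and miR-96-5p, transcribed from the same locus, overlap without being the same.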

How the data were processed

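H3K27me3 ChIP-seq peaks of WT replicates 7 and 9 were used as deposited, and the Kdm6b-cKO lists and the input were not used here. By the study's methods, reads were aligned with Bowtie2, libraries were subsampled to a like depth and broad peaks were called with MACS2. The submitters' notes name the build mm10 and the versions MACS2 2.2.7.1, deepTools 3.5.1, Bowtie2 2.3.5.1 and SAMtools 1.9, along with bcl2fastq. The deposited lists hold one set of peaks per library. How the input entered the calling is not given in the sources used here. The authors' lists give for each peak a start and end, a display score, a −log10 q and −log10 p averaged over the region, and a fold ratio over local background. The deposited score was not used further, and the deposited fold ratio and −log10 q were used to describe or filter peaks. No list gives read counts, so no count test was run and no counting interval can be given.

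Peaks on the 19 autosomes were merged within each library and intersected by base. Overlap between peaks required 1 bp. Genes and TSS (the outermost 5′ end of the gene) came from GENCODE M21. Genes under 54 symbols that more than 1 gene shares were left out of lists and families. All peaks lay within the chromosome lengths of GRCm38.p6. CpG content, repeat masking and 31-base words (every 16th of a stretch) were read from that genome. The interval functions were tested on simulated data with planted overlaps. Scripts used matplotlib 3.10.9, scipy 1.17.1, pandas 2.3.3 and numpy 2.4.6 under Python 3.11.15.

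Members, lists, families, the division of list genes into factors and others, and the printed sequences were chosen with earlier results of these data known. Named genes were, per list, up to 5 marked members with the largest covered share in the less covered library, up to 4 members at 0 bp in list order, members marked in 1 library where there were at most 3, genes at the longest stretches, genes with the largest gap between libraries and the genes the study names. Other genes, such as those of the Hox clusters, free members of marked families, microRNAs and signalling genes beyond this rule, were named after their values were seen. A few genes are not reported here. Alternatives were other peak thresholds, equal numbers of peaks, single libraries, other minimums, windows and starts, the X chromosome, joined gaps and another CpG window.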

Additional observations from a re-analysis of the deposited data

Results flagged for a closer look

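The X chromosome was left out of every value above and was covered to a degree close to that of chromosome 11, the most covered autosome. Peaks covered 5.59% of it in WT replicate 7 and 3.67% in WT replicate 9, against 3.32% and 2.25% of all autosomes. The single autosomes ranged from 1.45% to 5.81% in replicate 7 and from 0.928% to 3.84% in replicate 9, with chromosome 16 lowest and chromosome 11 highest in both. The X chromosome held 13.97% and 14.98% of all peaks, with 6.49% of the joint length of the autosomes and the X chromosome. The Y chromosome held 1 peak in replicate 7 and 2 in replicate 9. The labels give no sex of the embryos, and the part of sex in these values was not tested.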

How the results depend on the processing

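The length covered in both libraries, 48.5 Mb, was 47.9 Mb with the same number of peaks in both lists and 53.0 Mb with the X chromosome, but fell to 19.0 Mb with peaks of −log10 q of 5 or more, and ranged from 55.3 to 81.8 Mb when a single library was used. The 3205 marked promoters became 1291 at that peak threshold and 1752 with a minimum of 3000 bp, since fewer peaks or fewer bases then qualify. The other 9 alternatives for this count gave values within 1.5 times, from 2295 with TSS ± 1 kb to 4047 without replicate 9. The longest stretch was 144.5 kb when gaps up to 3 kb were joined and ranged from 87.3 to 133.4 kb in single libraries. The share of the union covered in both, the 321 marked of 723 list genes, the 44 families above the share of all genes and the CpG median stayed within 1.5 times under the alternatives run. Of 186 recounts of single lists 153 stayed within 1.5 times and 33 did not, 16 of them at the peak threshold. There the adipocyte list went from 12 to 4 marked and the lower dermis list from 4 to 0. The share of all genes fell from 15.4% to 6.2% at that threshold. The fibroblast list stayed at 0 in all. No paired analysis was possible because only WT libraries were used and no test was run. Peak lists without counts limit what can be said of single genes: a promoter at 0% has no called peak, which does not show that the mark is absent.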

Other observations

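Long non-coding RNA genes were counted in the same way as protein-coding ones, of which 15.4% were marked. Of 9426 such genes on the autosomes 1011 (10.7%) had a marked promoter in both libraries. Of the 2394 whose TSS lay within 6 kb of a protein-coding TSS 19.8% were marked, and of the 7032 farther away 7.65%, or 538 genes. Near a protein-coding gene the windows of both genes overlap.

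Bases masked as repeats made up 23.6% of the length covered in both libraries and 33.5% of the autosomes.

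In the Polycomb list Pcgf1, a subunit of Polycomb repressive complex 1, had 23.6% of its promoter covered in replicate 7 and 22.9% in replicate 9, with 32.5 kb and 31.6 kb covered within 25 kb.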
